A study of Mus musculus with 2 samples.

Results

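The mitochondrial genome-encoded respiratory mRNAs were followed here in a single pair of RNA-seq libraries, one made from C3H10 cells that received an antisense oligonucleotide (ASO) against the long noncoding RNA MALAT1 (ASO MALAT1), the other from C3H10 cells that received a control ASO (ASO NC). The members are ND1, ND2, ND4, ND5, ND6, COX1, COX2, COX3, CYTB and ATP6, taken by their upper-case symbols, with no measured value in the rule. They are 10 of the 46095 genes in the count table and 10 of its 13 mitochondrial mRNA rows, and all 10 passed the filter of at least 10 counts summed over both libraries, which 17356 genes passed. C3H10 is a mouse mesenchymal cell line that forms adipocytes after induction, and the labels describe the cells as C57BL/6 fibroblast precursors with adipogenic ability. The strain C57BL/6 comes from the labels alone. The study's text states no strain for the cells beyond the name of the line, C3H10, and that name does not point to C57BL/6. The strain in the labels is therefore doubtful, and it was not checked here. Both cultures received 100 nM ASO, were induced with isobutylmethylxanthine, dexamethasone, troglitazone and insulin and then kept on insulin, and by the study's account were collected at day 6 of differentiation. The labels do not tell which ASO sequence was used, and no untransfected culture was analysed here. With 1 library per group no difference below has a replicate check. The 95% intervals are Clopper-Pearson intervals of the read counts, which cover counting error only, and they compare these libraries, not the conditions.

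The mitochondrial genome is a small circle that is present in many copies per cell. RNA polymerase POLRMT, with TFAM and TFB2M, copies nearly the whole of each strand into a long precursor, and the mRNAs are freed mainly where tRNAs that lie between them are cut out. The mRNAs carry core subunits of the respiratory complexes: the ND genes those of complex I (NADH dehydrogenase), CYTB that of complex III, the COX genes those of complex IV (cytochrome c oxidase) and the ATP genes those of complex V (ATP synthase). All other subunits come from nuclear genes, and complex II is wholly nuclear-encoded. Fat cells use these complexes in fatty acid oxidation, and adipocyte differentiation is known for an increase in mitochondria.

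Malat1 was at 24.7% of the control level, with 170402 counts in the control library and 45396 in the MALAT1-knockdown library. The library totals were 58147539 and 61653549 counts. All 10 adipocyte markers were lower, 9 of them at least 2-fold, where 50.4% of all genes tested were lower and 6.02% at least 2-fold lower, and the CPM (counts scaled to the library total) summed over them was 7015 in the control and 2819 in the knockdown. Of 9 preadipocyte and fibroblast markers with enough counts, 8 were higher, and their summed level was 14476 and 16459 CPM. For comparison, 8600 of the 17356 genes tested were higher, and 680 of the 1183 with a mean of at least 10000 counts. Only Cd34, with 19 and 69 counts, was at least 2-fold higher among these markers. Dlk1 had 0 counts in both libraries. The summed level of the muscle markers was 0.0516 and 0.0649 CPM, with Myod1, Myog and Acta1 at 0 counts. The macrophage and endothelial markers summed to 3.41 and 2.37 CPM, with Ptprc and Adgre1 at 0. The bone and cartilage markers summed to 152 and 212 CPM, mostly from Sox9, and Acan was at 0. In bulk RNA, fewer adipocytes and less RNA per adipocyte cannot be told apart.

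Several members recur nearly unchanged in the nuclear genome, and their sequences are described before the values. The mouse nuclear chromosomes hold copies of mitochondrial DNA, and a read that matches both places cannot be assigned to either from its letters. Each member was aligned to the nuclear transcripts of GENCODE M21, an annotation of GRCm38, which is also the build in the submitters' processing notes. COX2, ATP6 and COX3 were found letter for letter over nearly their whole length. COX2, at chrM:7013-7696 on the plus strand, matched the pseudogene Gm28661 over 681 of 684 bases with 0 mismatches. ATP6, at chrM:7927-8607, matched Gm10925 over 678 of 681 bases, and COX3, at chrM:8607-9390, matched Gm28437 over 783 of 784 bases, both also with 0 mismatches. ND4, at chrM:10167-11544, matched Gm28439 over the opening 876 of its 1378 bases with 0 mismatches. COX1, at chrM:5328-6872, matched Gm29216 over its closing 483 of 1545 bases with 1 mismatch, and a pseudogene on chromosome 2, Gm13340, over its whole length with 97.6% identity. The pseudogenes with at least 99% identity all lie on the minus strand of chromosome 1, inside chr1:24611535-24616197, in the same order along that strand as the mitochondrial genes. Among these transcripts, the other members had only diverged copies. Nuclear sequence outside annotated transcripts was not searched. The closest were Gm13339 for ND2, with 96.7% identity over 510 bases, Gm4076 for ND5, with 95.2% over 954 bases, Gm11408 for ND6, with 93.6% over 519 bases, Gm11410 for CYTB, with 92.9% over 1142 bases, and Gm48258 for ND1, with 83.6% over 311 bases. The contrast is shown by the 60 bases at the middle of the alignment for a member with an identical copy, for 2 abundant members with diverged copies and for ND6, the only member on the other strand. The letters come from GENCODE M21 transcripts and run 5′ to 3′, and capitals mark the bases that differ between a gene and its copy.
COX2, chrM:7323-7382: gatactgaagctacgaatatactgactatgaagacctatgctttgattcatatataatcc
Gm28661, its nuclear copy: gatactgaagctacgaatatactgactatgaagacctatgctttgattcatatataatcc
CYTB, chrM:14687-14746: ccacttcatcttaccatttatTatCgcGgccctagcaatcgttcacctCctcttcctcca
Gm11410, its nuclear copy: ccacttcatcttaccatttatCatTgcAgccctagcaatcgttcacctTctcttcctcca
ND1, chrM:3519-3578: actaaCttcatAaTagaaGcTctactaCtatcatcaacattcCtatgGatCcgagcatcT
Gm48258, its nuclear copy: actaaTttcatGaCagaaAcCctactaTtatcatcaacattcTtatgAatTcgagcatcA
ND6, chrM:13782-13841, minus strand: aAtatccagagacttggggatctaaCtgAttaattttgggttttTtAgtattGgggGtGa
Gm11408, its nuclear copy: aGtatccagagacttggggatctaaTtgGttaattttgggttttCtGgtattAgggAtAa
The COX2 window held 0 differences, the CYTB window 4, the ND6 window 8 and the ND1 window 10. Over whole genes, 99.5% of the 100-base windows of COX2 and 99.9% of those of COX3 recurred letter for letter in a nuclear transcript, against 60.8% for ND4, 30.8% for COX1, 3.19% for ND2 and 0% for ND1, ND5, ND6 and CYTB.

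The levels of the members, in CPM per kilobase of gene, spanned 721-fold in the control library and 677-fold in the MALAT1-knockdown library, and the 10 members stood in the same order in both. COX1, the catalytic core of cytochrome c oxidase, was the highest member, at 8736 CPM per kilobase in the control library and 8019 in the MALAT1-knockdown library. CYTB, the cytochrome b of complex III, followed with 3407 and 3146 CPM per kilobase. ND1, a complex I subunit of the membrane arm at its junction with the peripheral arm, was close to CYTB, with 3370.2 and 3091 CPM per kilobase. ND5, the proton-pumping subunit at the far end of that arm, had 1777 and 1724, ND2 had 1287 and 1454, and ND4 had 803 and 726 CPM per kilobase. ND2 and ND4 are also proton-pumping subunits of the membrane arm. These 6 members, each above 10000 counts in both libraries, held 99.8% of the members' counts in either library. The remaining members were far lower. ND6, the member transcribed from the other strand, had 29.1 CPM per kilobase in the control library and 37.2 in the MALAT1-knockdown library. COX2, which carries the copper site that takes electrons from cytochrome c, had 19.4 and 19.97, COX3 had 13.1 and 14.3, and ATP6, the subunit of the proton channel of ATP synthase, had 12.1 and 11.8 CPM per kilobase.

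**Figure D1:**
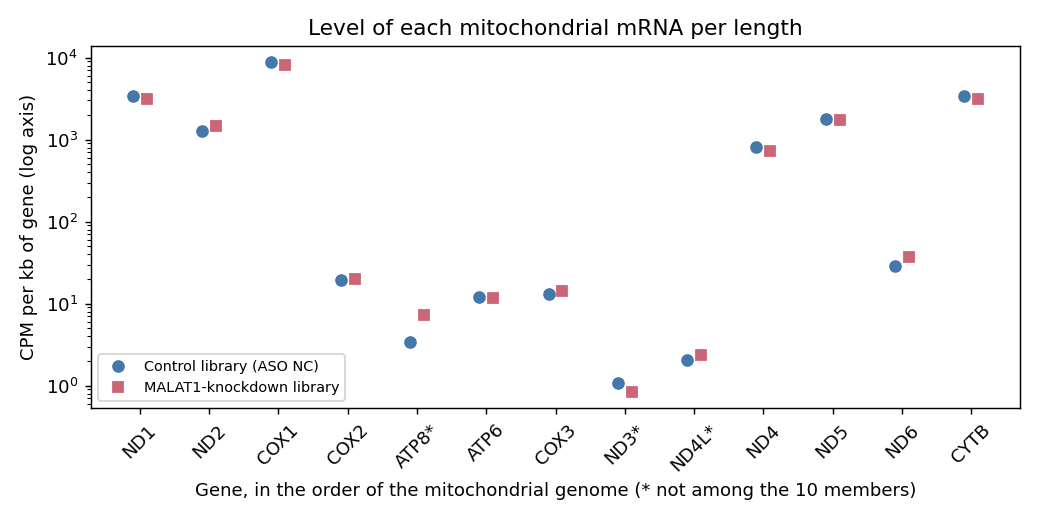
CPM per kilobase of gene (log axis) for the 13 mitochondrial mRNAs, in the order of the mitochondrial genome, in the control library (circles) and the MALAT1-knockdown library (squares), with an asterisk on the 3 mRNAs that are not among the 10 members. The mRNAs from COX2 to ND4L and ND6 lie at or under 37.2 CPM per kilobase in both libraries, whereas ND1, ND2, COX1, ND4, ND5 and CYTB lie at or above 726.

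Of the low members, 3 were neighbours on the genome, and ND6 lies apart from them between ND5 and CYTB. COX2, ATP6 and COX3 lie side by side on the plus strand between COX1 and ND4, and they are read from the same precursor as COX1. Per length, COX1 stood 450-fold above COX2 in the control library and 402-fold in the MALAT1-knockdown library, although both mRNAs carry core subunits of the same enzyme. Over COX3, the third core subunit, the values were 667-fold and 563-fold. The 3 mRNAs of the same stretch that are not members were lower still: ATP8 had 40 and 91 counts, ND3 had 22 and 18 counts, and ND4L had 36 and 43 counts. ND3 and ND4L matched the chromosome 1 pseudogenes Gm28438 and Gm10222 over 345 of 348 and 294 of 297 bases, with 1 and 0 mismatches. ATP8 lies between COX2 and ATP6 and shares 43 bases with ATP6, which fall inside the identical copy Gm10925. The closest transcript aligned to ATP8 over at least 100 bases, Gm28925, had 81.4% identity. The rest of ATP8 corresponds to the gap between Gm28661 and Gm10925 on chromosome 1, which no annotated transcript of the search covered, so whether ATP8 also has a near-identical copy there was not tested. Gm10222, the copy of ND4L, was the only pseudogene of this block with a row in the count table, with 92 counts in the control library and 113 in the MALAT1-knockdown library. In the control library, the 5 mRNAs inside near-identical copies for all but 1 to 3 of their bases lay between 1.09 and 19.4 CPM per kilobase. The 6 abundant members lie outside or only partly inside the annotated copies found, and they lay between 803 and 8736. How reads that match several places were counted is not given in the sources used here, and the part of the nuclear copies in these levels was not tested. The values of COX2, COX3 and ATP6 are therefore uncertain as levels of the mRNAs.

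**Figure D2:**
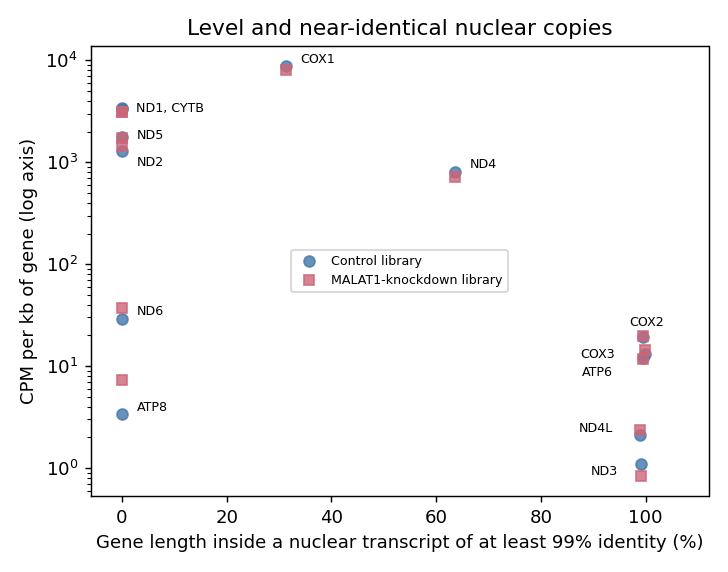
CPM per kilobase (log axis) of the 13 mitochondrial mRNAs against the percent of gene length that lies inside a nuclear transcript alignment of the gene itself with at least 99% identity over at least 100 bases, in the control library (circles) and the MALAT1-knockdown library (squares). COX2, COX3, ATP6, ND3 and ND4L sit near 100% and at or under 19.97 CPM per kilobase, ND4 and COX1 in between on the horizontal axis, and ND6 and ATP8 are low at 0%, a value that leaves out the 43 bases ATP8 shares with ATP6 and the unsearched stretch between annotated copies.

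Dividing by the length outside the copies moved the partly copied genes. For ND4, whose 502 bases at the 3′ end lie outside the copy, the level became 2205 CPM per kilobase in the control library and 1992 in the MALAT1-knockdown library, so that ND1 stood 1.53-fold and 1.55-fold above it instead of 4.19-fold and 4.26-fold. For COX1, with 1062 bases outside, it became 12709 and 11666 CPM per kilobase. This alternative was chosen after the values were seen, and it moved ND4 from below ND2 and ND5 to above both. ND6 is a different case, since its closest copy among the annotated transcripts was diverged. It is encoded on the minus strand, it overlaps ND5 by 14 bases, and ND5 stood 61.2-fold above it per length in the control library and 46.4-fold in the MALAT1-knockdown library. The library kit keeps the strand of the RNA, but whether the counting used it is not given in the sources used here. Without strand, reads of ND6 and reads of the plus-strand precursor across it cannot be told apart.

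Between the libraries the members differed little. Summed, they had 1532271 counts in the control library, or 2.64% of the total (95% interval 2.63 to 2.64), and 1519869 in the MALAT1-knockdown library, or 2.47% (2.46 to 2.47). After scaling of library sizes by edgeR's TMM factors, the log2 ratio of the sum, MALAT1-knockdown over control, was -0.118 (95% interval -0.122 to -0.115), which is 92.1% of the control level. The median over the 10 members was -0.06, with 6 lower and 4 higher (50.4% of all genes tested were lower), beside a median of -0.0031 over all genes tested. Over the 6 members above 10000 counts in both libraries, which leave out COX2, COX3, ATP6 and ND6, the median was -0.14. Of the 10 members, 0 differed by 2-fold or more in either direction, where 9.85% of all genes tested and 1.61% of genes with a mean of at least 10000 counts did. At 1.5-fold the count was also 0, where 20.2% of all genes tested and 4.9% of those abundant genes passed.

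The abundant members were lower by a similar amount, with the exception of ND2. COX1 had 784815 counts in the control library and 763826 in the MALAT1-knockdown library, a log2 ratio of -0.15 (95% interval -0.15 to -0.14) or 90.4% of the control level. ND1 had 187541 and 182394 counts, a log2 ratio of -0.15 (-0.16 to -0.14). CYTB had 226642 and 221924 counts, a log2 ratio of -0.14 (-0.15 to -0.13). COX1, ND1 and CYTB, which belong to 3 different complexes, thus lay at 90.3% to 90.9% of the control level. ND4 had 64378 and 61640 counts and was the lowest of the members, at -0.17 (-0.19 to -0.15). ND5 had 188482 and 193844 counts and was nearest to 0 of these, at -0.07 (-0.08 to -0.06). ND2 had more reads in the MALAT1-knockdown library, with 77687 counts in the control library and 93024 in the MALAT1-knockdown library, a log2 ratio of 0.15 (0.14 to 0.17) or 111% of the control level. The interval lay below 0 for 5 members, where it did for 26.4% of all genes tested and 35.1% of the abundant genes. It lay above 0 for ND2 and ND6, where it did for 26.7% of all genes tested and 50.0% of the abundant genes. Since the interval excluded 0 for 53.1% of all genes tested and 85.1% of the abundant genes, its place beside 0 says little about a member at this depth. The range between the quartiles of the log2 ratios of the 1183 abundant genes was -0.09 to 0.14, and COX1, ND1, CYTB and ND4 lay below that range and ND2 above it. By definition, about as many of the abundant genes lie outside that range as inside it, so this place does not mark these members out.

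**Figure D3:**
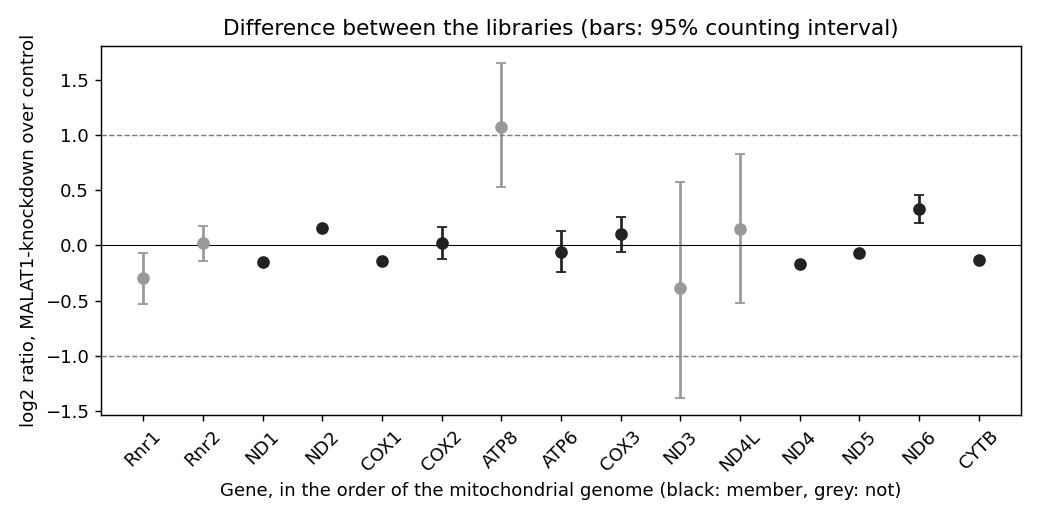
Log2 ratio of TMM-scaled counts, MALAT1-knockdown over control, for the 13 mitochondrial mRNAs and the rRNAs Rnr1 and Rnr2 in the order of the mitochondrial genome, with 95% counting intervals as bars (black for the 10 members, grey for others) and dashed lines at 2-fold. All 10 members lie between -0.17 and 0.33, and ATP8, with 40 and 91 counts, is the only mRNA past a dashed line.

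Of the 4 members with few counts, ND6, COX3 and COX2 had log2 ratios above 0 and ATP6 below. ND6 had 877 counts in the control library and 1189 in the MALAT1-knockdown library, a log2 ratio of 0.33 (95% interval 0.21 to 0.46) or 126% of the control level, the highest of the members. COX3 had 597 and 689 counts, a log2 ratio of 0.10 (-0.06 to 0.26). COX2 had 772 and 842 counts, a log2 ratio of 0.02 (-0.12 to 0.16). ATP6 had 480 and 497 counts, a log2 ratio of -0.06 (-0.24 to 0.13). For COX2, COX3 and ATP6 the intervals held 0, so a difference from the control was not detectable at this depth, and the interval of ATP6 also held the value of COX1.

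Because every member of the plus strand comes from a shared precursor, the members were also compared with each other inside each library, which takes library scaling out of the comparison. The ratio of COX1 to ND1 counts was 4.18 in the control library and 4.19 in the MALAT1-knockdown library, a log2 change of 0.0010 (counting SE 0.0053). CYTB to ND1 was 1.21 and 1.22, a change of 0.0098 (counting SE 0.0064). ND4 to ND1 was 0.343 and 0.338, a change of -0.02 (counting SE 0.0094), and ND5 to ND1 was 1.01 and 1.06, a change of 0.08 (counting SE 0.0067). ND2 to ND1 was 0.414 and 0.510, a change of 0.30 (counting SE 0.0085), and against COX1 the change was also 0.30. ND2 lies directly between ND1 and COX1 on the genome, separated from them mainly by tRNA genes, so the gene in the middle differed from both of its neighbours, whose own ratio was within counting error in both libraries. In shares of the members' counts, ND2 took 5.07% in the control library and 6.12% in the MALAT1-knockdown library, while COX1 took 51.2% and 50.3%, CYTB 14.8% and 14.6%, and ND5 12.3% and 12.8%. With 1 library per group these changes have no error between cultures.

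The nuclear-encoded partners of the same complexes were lower to a larger extent. Of 75 nuclear respiratory subunit genes listed, 74 had enough counts, and all 74 were lower after knockdown, where 50.4% of all genes tested were lower. Their median log2 ratio was -0.36, with quartiles of -0.45 and -0.24. Of the 74, 0 were at least 2-fold lower and 3 at least 1.5-fold lower, where 6.02% and 11.9% of all genes tested were. For complex I, the 5 members had -0.17, -0.15, -0.07, 0.15 and 0.33, and the nuclear core subunits had a median of -0.43 over 7 genes, with Ndufs7 at -0.53, Ndufv1 at -0.51 and Ndufs3 at -0.48. The nuclear accessory subunits of complex I had a median of -0.30 over 28 genes. For complex III, CYTB had -0.14, and its 9 nuclear partners had a median of -0.50. Uqcrfs1, which encodes the Rieske iron-sulfur protein, had 10436 counts in the control library and 7803 in the MALAT1-knockdown library, a log2 ratio of -0.53. For complex IV, COX1 had -0.15, COX2 0.02 and COX3 0.10, and the 11 nuclear subunits had a median of -0.41. Cox4i1, a subunit that binds COX1 in the assembled enzyme, had 29868 and 22995 counts, a log2 ratio of -0.48 (95% interval -0.51 to -0.46). For complex V, ATP6 had -0.06 (95% interval -0.24 to 0.13), and the 15 nuclear subunits had a median of -0.25. Among them, Atp5b, the catalytic beta subunit, had -0.42 and Atp5k -0.85. The values of COX2, COX3 and ATP6 rest on few counts and on genes that lie almost wholly inside identical nuclear copies. For complex V the comparison with the nuclear subunits is therefore weak. Complex II, which has no mitochondrially encoded subunit, had a median of -0.37 over 4 genes, with Sdha at -0.42. The summed CPM of the nuclear subunits was 11408 in the control library and 8984 in the MALAT1-knockdown library, and that of the members was 26351 and 24652. No test of the difference between members and nuclear subunits was run, since it rests on 1 library per group.

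**Figure D4:**
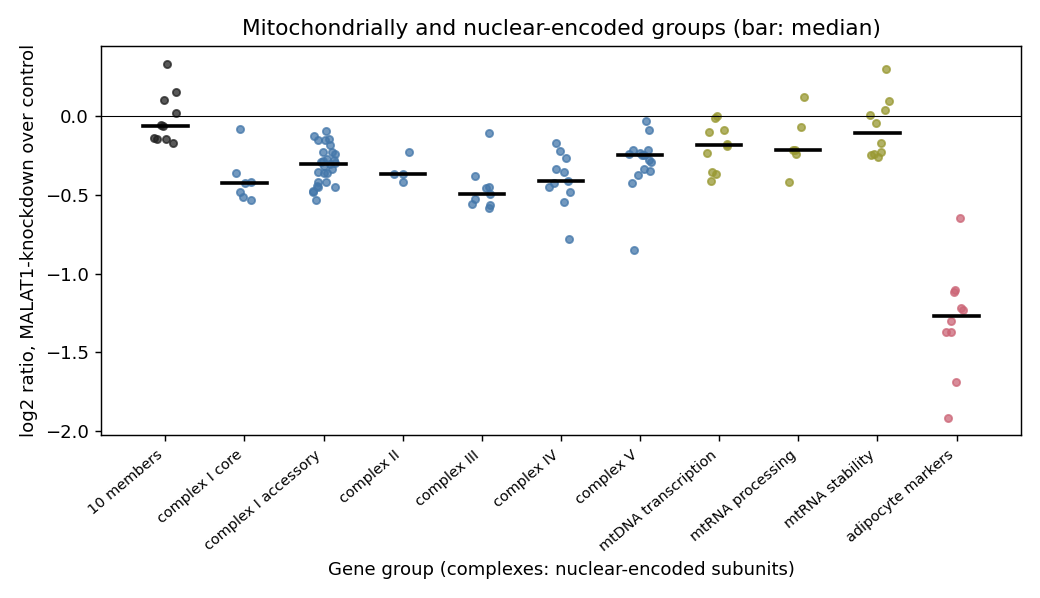
Log2 ratio of single genes (points), MALAT1-knockdown over control, for the 10 members, the nuclear-encoded subunits of each respiratory complex, the genes of mitochondrial transcription and RNA handling, and the adipocyte markers, with the median of each group as a bar. The members have a median of -0.06, the groups of nuclear subunits have medians from -0.50 to -0.25, and the adipocyte markers have a median of -1.27. The 6 members above 10000 counts in both libraries have a median of -0.14.

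The genes that make, cut and protect these mRNAs were mostly slightly lower. Of 28 such genes listed, 26 were in the table under a matched symbol, 21 were lower and 5 higher, and 0 reached 1.5-fold, where 50.4% of all genes tested were lower and 20.2% reached 1.5-fold. Among the 10 transcription genes, all were lower, with a median log2 ratio of -0.18. Polrmt, the mitochondrial RNA polymerase, had 2566 counts in the control library and 2443 in the MALAT1-knockdown library, a log2 ratio of -0.18 (95% interval -0.26 to -0.10). Tfam, which packs mitochondrial DNA and starts transcription, had 2258 and 2270 counts, a log2 ratio of -0.10 (-0.18 to -0.01). Tfb2m, the initiation factor that opens the promoter, had -0.41, and Tefm, the elongation factor, had -0.37. Among 6 processing genes, Hsd17b10, a subunit of mitochondrial RNase P, was lowest at -0.42, Trmt10c, another subunit, had -0.24, and Mtpap, the mitochondrial poly(A) polymerase, had -0.22. Among 10 genes of stability and decay, 6 were lower and 4 higher, with a median of -0.11. Lrpprc, which keeps mitochondrial mRNAs stable, had 6161 and 5668 counts, a log2 ratio of -0.23 (-0.28 to -0.17), and its partner Slirp had 1036 and 1081 counts, a log2 ratio of -0.05 (-0.17 to 0.08). Pnpt1, a polynucleotide phosphorylase of mitochondrial RNA decay, was the highest of them, with 1848 and 2442 counts and a log2 ratio of 0.30 (0.21 to 0.38).

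Of the genes of mitochondrial DNA replication and upkeep, 12 of 14 were lower, beside 50.4% of all genes tested, with a median of -0.09. Dna2, a nuclease and helicase that also acts in nuclear DNA replication, stood apart from the rest of that list, with 253 counts in the control library and 468 in the MALAT1-knockdown library and a log2 ratio of 0.78 (95% interval 0.56 to 1.01). Polg2, the accessory subunit of the mitochondrial DNA polymerase, had -0.35 and Atad3a had -0.33. Of 11 general mitochondrial genes, 10 had a log2 ratio below 0, beside the same 50.4% of all genes tested. Their median was -0.27, where that of the 10 members was -0.06 and that of the 6 members above 10000 counts -0.14. Among them were Cs, the citrate synthase often taken as a measure of mitochondrial mass, at -0.43, and Phb at -0.43. Hspa9, the mitochondrial chaperone mortalin, had -0.58. Of 25 assembly and translation factors of the respiratory chain, 19 were lower and 6 higher, again beside 50.4% lower, with a median of -0.22. Atpaf2 and Atpaf1, which help to assemble the catalytic head of ATP synthase, had -0.62 and -0.53. Uqcc1, an assembly factor of complex III that acts with cytochrome b, had -0.57. Uqcc2, also an assembly factor of complex III, was among the higher ones, at 0.17 (95% interval 0.10 to 0.25). The adipocyte marker levels moved in the same direction as these lists, and their part in these differences was not tested.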

How the data were processed

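The authors depleted rRNA, used a directional library kit and deposited raw read counts per gene symbol, without normalization. The submitters' processing notes name HISAT2 and GRCm38, and the counting tool, annotation and handling of strand, duplicates and reads that match several places are not given in the sources used here. CPM used library totals, and for ratios library sizes were scaled by TMM (edgeR 4.0.16, R 4.3.3). Genes with at least 10 summed counts were kept, and log2 ratios used a prior count of 0.5. Clopper-Pearson 95% intervals of a gene's split between libraries (scipy 1.17.1, Python 3.11.15) were run on data simulated with counting error alone. That simulation checks the code and cannot tell how the intervals hold with spread between cultures. With 1 library per group no test between conditions and no p-value was computed, and a gene counted as called past 2-fold. The depth was 58147539 counts in control and 61653549 in knockdown, and 3 counts, the limit that 0 counts allows, equal 0.0516 and 0.0487 CPM. Nuclear copies were sought with BLAST+ 2.17.0 in GENCODE M21 transcripts (at least 80% identity over at least 100 bases). Coordinates of mitochondrial genes are from the RefSeq table of GRCm38.p6 and are identical in GENCODE M21. Named genes were the members, the other mitochondrial rows, Malat1, fixed regulators and up to 3 genes per list. These 3 had the largest absolute log2 ratios of the list among genes with a mean of at least 100 counts. Uqcc2, Gm10222, the other pseudogenes and the markers at 0 were named after their values were seen. The members and lists were chosen with earlier results of these data known. Alternatives were library totals, DESeq2 1.42.0 size factors, upper-quartile factors, TMM without mitochondrial rows, other filters and a prior count of 2.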

Additional observations from a re-analysis of the deposited data

How the results depend on the processing

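No paired analysis was possible because each group has 1 library, and no library could be left out. The sign of each of the 10 members, the 6 lower and 4 higher members, and the count of 0 members past 2-fold were kept under all 7 alternatives of scaling, filter and prior count, and 0 members passed 1.5-fold. With library totals, the median of the members was -0.039, the log2 ratio of their sum -0.10, the median of the nuclear subunits -0.34 and that of the 26 mitochondrial expression genes -0.16. With upper-quartile factors, the first 3 were -0.052, -0.11 and -0.35. Scaling shifts all genes alike, and the median of all genes tested lay between -0.0136 and 0.0190 over these settings. The count of nuclear subunits past 2-fold was 0 and became 1 with a filter of at least 1 count, and 3 passed 1.5-fold. Without Malat1 in the total, the members held 2.643% of the control library instead of 2.635%. The planned length from protein sequences was not run, since no protein table was used here. Counting error limits ATP6, COX2 and COX3, and no alternative covers the spread between cultures.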

Other observations

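The table also holds rows for the mitochondrial rRNAs and tRNAs, which are no members. The rRNAs, which the library kit was meant to remove, had few reads. Rnr1, the RNA of the small mitochondrial ribosomal subunit, had 344 counts in the control library and 301 in the MALAT1-knockdown library, a log2 ratio of -0.30 (95% interval -0.53 to -0.07). Rnr2, that of the large subunit, had 633 and 691 counts, a log2 ratio of 0.02 (-0.14 to 0.18). Of 22 tRNA rows, 13 had 0 counts in both libraries, and all 22 together had 256 and 288 counts. TrnW, which follows ND2 and overlaps it by 2 bases, had the most, with 148 and 187 counts and a log2 ratio of 0.23 (-0.09 to 0.55). TrnT, on the plus strand after CYTB, had 83 and 61 counts, a log2 ratio of -0.55 (-1.05 to -0.06).

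Rows of the minus strand were named together after their values were seen. Besides ND6, they are 8 tRNA rows, which had 20 counts in the control library and 40 in the MALAT1-knockdown library, a log2 ratio of 0.88 (95% interval 0.08 to 1.75). Most of these reads were on TrnP, with 11 and 24 counts. With ND6 the minus-strand rows summed to 897 and 1229 counts, a log2 ratio of 0.35 (0.22 to 0.47). ND6 alone gave 877 and 1189 of these counts, so the sum says little beyond ND6. The 12 plus-strand mRNAs summed to -0.12, with 7 lower and 5 higher. The plus-strand tRNA rows had 236 and 248 counts, a log2 ratio of -0.04 (-0.30 to 0.23). Whether the counting used strand is not given, so a difference between the strands was not tested. ATP8, with 40 and 91 counts, had a log2 ratio of 1.07 (0.53 to 1.65) and shares 43 bases with ATP6, which had -0.06.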
